A study of Homo sapiens with 6 samples.

Results

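Messenger RNAs of 10 genes were followed that hypoxia-inducible factors (HIFs) are known to switch on: VEGFA, ADM, EGLN3, BNIP3, BNIP3L, PDK1, CA9, P4HA1, NDRG1 and ANKRD37. They were chosen by name from common knowledge of the pathway, with earlier results of these data known. The 10 genes are 10 of 17787 gene symbols listed in the files. Each gene stood on 1 row in every file. Messenger RNA was sequenced from A549, a cell line of human lung adenocarcinoma. The 3 libraries named siFOXD3 carry that word as their genotype, after a small interfering RNA (a short RNA used to lower the messenger of 1 gene) against the forkhead factor FOXD3. The 3 libraries named siNC are labelled wild type and served as the control, and the labels do not spell the name out. The labels give neither the oxygen level or density of the cultures, nor the siRNA dose and time, nor whether the replicates were separate cultures. The p-values therefore measure the spread between these libraries, which may be technical.

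HIFs are transcription factors made of an oxygen-regulated alpha subunit and a stable partner, ARNT. In cells with enough oxygen, prolyl hydroxylases of the EGLN family mark the alpha subunit, and the VHL ubiquitin ligase then has it destroyed. When oxygen is short the subunit persists, and the factor binds a short element with the core ACGTG or GCGTG near its targets. The products of these targets raise blood supply, shift energy production toward glycolysis, trim mitochondria, control acidity and modify the matrix. Several of the genes also answer to other signals, among them growth factors and nutrient stress.

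Levels are given in the deposited FPKM, which scales sequenced fragments to transcript length and to the size of the library. Sums of FPKM lay between 596623 and 614734 in siFOXD3 and between 604527 and 618389 in siNC. Depth, estimated from the step size of low FPKM, was 7650000 to 8640000 fragments. FOXD3 itself was close to the detection limit: it was listed at 0.0749 FPKM in siFOXD3 replicate 2 and not listed in replicates 1 and 3, against 0.152, 0.291 and 0.134 FPKM in siNC. Of 10 lung epithelial markers 8 reached 1 FPKM in at least 1 library, and their sum was 8936 to 9017 FPKM in siFOXD3 and 6953 to 7944 FPKM in siNC, while the surfactant genes SFTPB and SFTPC were not listed or at most 0.149 FPKM. The sum was mostly keratins. By the test described below, 3 of the 8 tested markers were called higher and 3 lower (75.0% called, beside 65.9% of all genes). None of 8 photoreceptor markers reached 1 FPKM, although the extraction protocol in the labels speaks of retinas. Of 8 endothelial markers only CDH5 reached 1 FPKM (1 of 8), and of 8 fibroblast markers only COL1A1 did. Of 8 leukocyte markers CD68, LAPTM5 and CD14 did (3 of 8), with PTPRC, the defining leukocyte antigen, at or below 0.309 FPKM. Summed leukocyte markers, nearly all CD68, were 67.6 to 68.9 FPKM in siFOXD3 and 74.8 to 84.8 FPKM in siNC, and summed endothelial markers 1.90 to 2.18 and 2.67 to 3.52 FPKM. The part of these differences in the results was not tested. In bulk RNA, fewer cells that express a gene and less RNA per cell cannot be told apart.

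siNC replicate 1 stood apart from the other siNC libraries in these genes, so the fold change of each of the 10 genes is given with and without it. Because the library was singled out by these genes, their p-values without it are descriptive only. Across all 12555 genes tested, 271 genes (2.16%) lay 0.5 or more on the log2 scale away from the mean of the other siNC libraries in replicate 1. Of the 271 genes 90 were higher and 181 lower. The total in either direction was 177 for siNC replicate 2 and 153 for siNC replicate 3, and 124 to 175 in the siFOXD3 libraries. Only 30 genes (0.239%) were at least 0.5 higher in siNC replicate 1 than in both siNC replicates 2 and 3, and 4 of the 10 target genes were among them: ANKRD37, CA9, EGLN3 and NDRG1. Of the rest, 2 (TMEM45A and PFKFB4) belong to the wider lists of HIF targets described further on. The other 24 were in none of the lists of relatives, pathway genes and targets. The cause of this difference was not tested.

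The promoters of the genes that stood out in siNC replicate 1 are shown because the HIF core letters can be read in them directly. RefSeq promoter sequences (GRCh38.p14, 250 bases before to 50 bases after a gene's start, on the gene's own strand) were matched for 7 of the 10 genes. VEGFA, NDRG1 and BNIP3L were not matched. Capitals mark ACGTG or GCGTG on either strand, so that CACGT and CACGC are the same letters read from the opposite strand. CA9 (chr9:35673678-35673977, plus strand), ANKRD37 (chr4:185396591-185396890, plus strand), EGLN3 (chr14:33951025-33951324, minus strand) and, from a gene that fell, BNIP3 (chr10:131981874-131982173, minus strand) read as follows.
CA9: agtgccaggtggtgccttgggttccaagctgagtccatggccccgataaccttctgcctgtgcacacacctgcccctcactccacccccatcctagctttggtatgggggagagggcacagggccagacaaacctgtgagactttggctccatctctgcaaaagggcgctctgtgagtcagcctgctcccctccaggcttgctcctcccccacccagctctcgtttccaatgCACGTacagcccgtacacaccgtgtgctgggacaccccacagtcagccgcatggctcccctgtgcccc
ANKRD37: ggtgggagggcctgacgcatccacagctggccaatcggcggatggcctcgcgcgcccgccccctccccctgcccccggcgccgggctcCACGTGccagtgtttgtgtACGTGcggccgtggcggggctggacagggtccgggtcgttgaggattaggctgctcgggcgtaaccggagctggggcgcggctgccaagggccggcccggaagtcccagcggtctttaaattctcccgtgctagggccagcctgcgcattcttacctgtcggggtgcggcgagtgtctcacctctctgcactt
EGLN3: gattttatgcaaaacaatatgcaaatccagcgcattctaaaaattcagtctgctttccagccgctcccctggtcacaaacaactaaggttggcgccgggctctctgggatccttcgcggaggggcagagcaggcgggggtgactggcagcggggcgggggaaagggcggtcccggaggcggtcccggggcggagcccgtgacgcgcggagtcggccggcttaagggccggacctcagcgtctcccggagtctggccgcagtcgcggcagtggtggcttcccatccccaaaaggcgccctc
BNIP3: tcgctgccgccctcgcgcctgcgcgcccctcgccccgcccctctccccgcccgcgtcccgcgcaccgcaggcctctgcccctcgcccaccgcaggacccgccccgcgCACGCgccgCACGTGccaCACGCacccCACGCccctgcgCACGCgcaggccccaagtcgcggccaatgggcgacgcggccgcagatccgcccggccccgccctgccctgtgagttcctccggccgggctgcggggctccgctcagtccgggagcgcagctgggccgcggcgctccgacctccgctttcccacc

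The CA9 promoter held 1 match, ACGTG on the opposite strand, which begins 18 bases before the start. ANKRD37 held 3 ACGTG matches, at 162, 161 and 143 bases before the start. The first pair overlaps and spells CACGTG, the palindromic E-box that MYC and BHLHE40 are known to bind. BNIP3 held 2 ACGTG matches, which likewise spell CACGTG 134 bases before the start, and 4 GCGTG matches. The EGLN3 window held neither motif, which says only that these letters are not in those 300 bases. In ADM a single GCGTG began 101 bases before the start, in P4HA1 a single ACGTG 86 bases before it, and PDK1 held 2 ACGTG matches in 1 of its 2 listed promoters. Among all 35116 promoters in the table, 21.4% held ACGTG, 36.5% held GCGTG, 48.5% held either and 7.26% held CACGTG. Genes that fell and genes that did not pass the test both held the motif, and a match is not evidence of binding.

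Between the groups the 10 genes did not move one way. VEGFA, NDRG1, BNIP3L and BNIP3 fell and ADM rose, and EGLN3, CA9, ANKRD37, P4HA1 and PDK1 did not pass the test. All 10 passed the filter for testing (1 FPKM or more in 3 or more of the 6 libraries). CA9 and ANKRD37 did so through the 3 siFOXD3 libraries and siNC replicate 1. The test was limma on log2(FPKM + 1) across all 12555 genes with Benjamini-Hochberg adjustment, two-sided, with a gene called at an adjusted p under 0.05. Of the 10 genes 5 were called, where the share among all genes tested was 65.9%. By direction, 1 gene was called higher against a background of 27.2%, and 4 lower against 38.7%. siFOXD3 and siNC were fully separated, with no shared range, for 5 of the 10 genes, compared with 70.7% of all genes. For those 5 the exact permutation test of a single gene gave p = 0.1, the lowest possible with 3 libraries on each side, and for EGLN3, CA9, ANKRD37, P4HA1 and PDK1 it gave 0.4, 0.4, 0.7, 0.7 and 0.9. The median log2 fold change was 0.03 over the 10 genes and -0.08 over all genes. Without siNC replicate 1, 8 of the 10 were called, against a background of 66.9%. EGLN3, CA9 and ANKRD37 then joined ADM as called higher (4 genes, background 27.4%), the 4 lower calls stayed (background 39.5%), and the median was 0.11. In that comparison CA9 and ANKRD37 reached 1 FPKM in siFOXD3 only, the group where they were higher. They were bound to differ, and their calls there support nothing. EGLN3 was bound to rise as well, because the library left out was its highest, so its call there supports nothing either. The counts without siNC replicate 1 are therefore descriptive only.

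**Figure D1:**
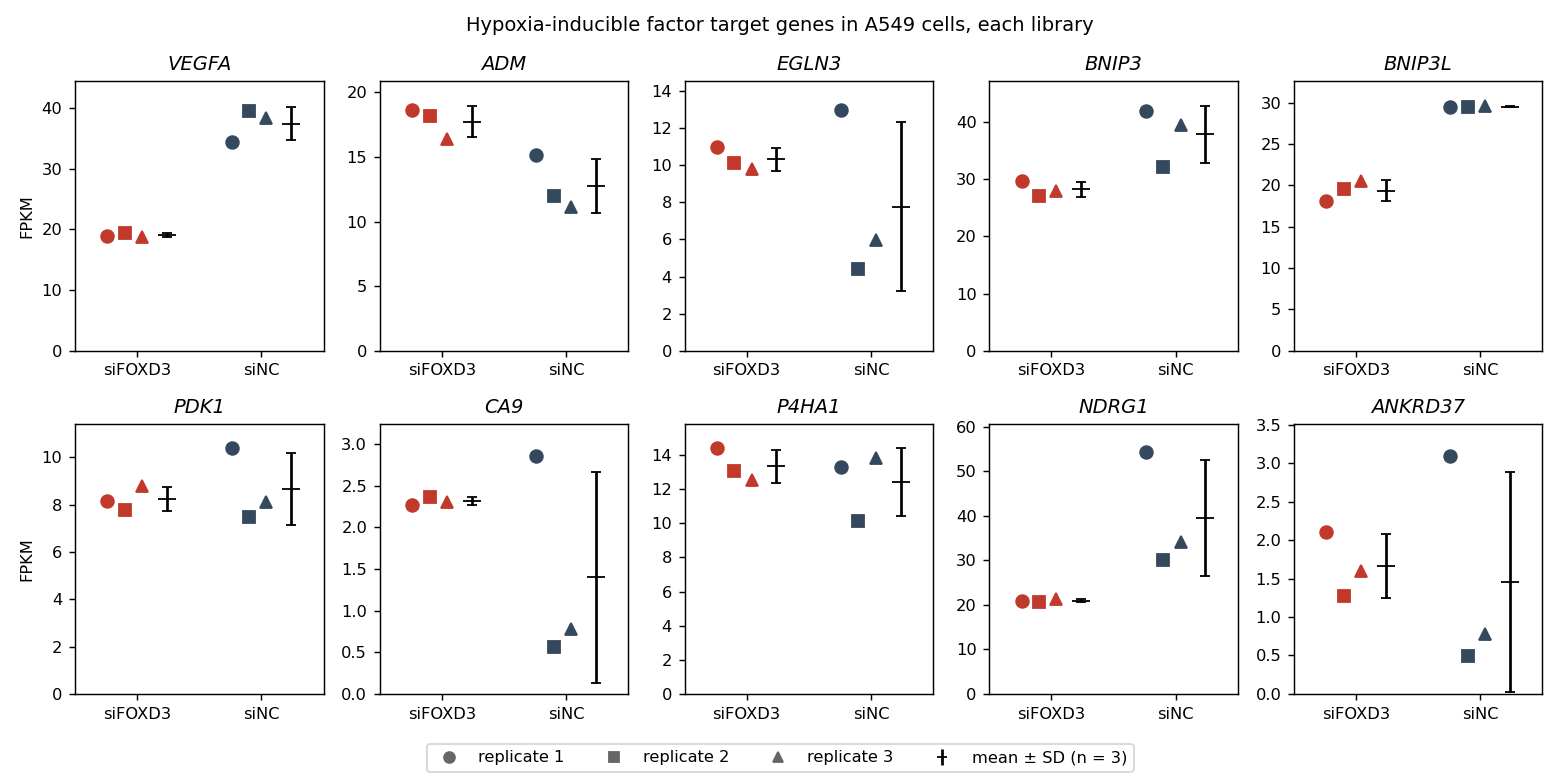
FPKM of each of the 10 target genes (vertical axis, linear from 0) in every library, siFOXD3 left and siNC right, with marker shape for the replicate number and a bar for mean ± SD. For EGLN3, CA9 and ANKRD37 siNC replicate 1 lies above every siFOXD3 library and siNC replicates 2 and 3 lie below them all, whereas VEGFA, BNIP3, BNIP3L and NDRG1 are lower in all siFOXD3 libraries.

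The secreted signals went opposite ways. VEGFA, the main growth factor for blood vessels, was at 18.9, 19.4 and 18.8 FPKM in siFOXD3 replicates 1 to 3, against 34.4, 39.5 and 38.3 FPKM in siNC. Every siFOXD3 value was below every siNC value, and siNC replicate 1, high in many of the other genes, was the lowest siNC library here. VEGFA averaged 19.1 ± 0.337 FPKM in siFOXD3 and 37.4 ± 2.66 FPKM in siNC (SD, n = 3 each), a ratio of 0.509. On the log2 scale VEGFA fell by 0.94 with an SE of 0.06 (adjusted p = 8.3e-07, limma with Benjamini-Hochberg adjustment), a value at or below that of 92.8% of the genes tested. Without siNC replicate 1 the fall was 0.99.

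ADM encodes adrenomedullin, a peptide that widens blood vessels. It was at 18.7, 18.1 and 16.4 FPKM in siFOXD3 and at 15.1, 12.01 and 11.1 FPKM in siNC. The groups did not overlap, although the lowest siFOXD3 value and siNC replicate 1 were close. ADM rose by 0.45 ± 0.10 on the log2 scale (limma, Benjamini-Hochberg adjusted p = 0.00287), and by 0.57 ± 0.07 without siNC replicate 1 (adjusted p = 9.14e-05). The VEGFA to ADM ratio of FPKM was 1.02, 1.07 and 1.15 in siFOXD3, against 2.27, 3.29 and 3.44 in siNC. The exact permutation test of that ratio, two-sided, gave p = 0.1, and 0.267 after Benjamini-Hochberg adjustment over the 8 gene pairs compared.

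The receptors and relatives of these signals were mostly silent or lower. KDR and FLT1, the receptors through which VEGFA acts on endothelium, were at or below 0.0742 FPKM in every library, and CALCRL, the core of the adrenomedullin receptor, at or below 0.0411 FPKM. Of 5 tested VEGF ligands and receptors 3 fell and 1 rose, and their median was -0.41 on the log2 scale (all genes -0.08, and -0.16 for the list under quantile normalization). Over all genes 38.7% were called lower and 27.2% higher. With a filter of 5 FPKM only 1 gene of the list was called lower, because PGF and VEGFC were then not tested. With no filter 2 were called higher. The ligands PGF (1.499 ± 0.182 FPKM in siFOXD3, 4.48 ± 0.578 FPKM in siNC), VEGFB (25.4 ± 1.58 and 39.9 ± 2.45 FPKM) and VEGFC (log2 fold change -0.41) fell, and the coreceptor NRP1 rose by 0.28. VEGFC was not called under quantile normalization (-0.16, adjusted p = 0.245, limma). The VEGFA to VEGFB ratio was 0.791, 0.771 and 0.694 in siFOXD3 and 0.913, 0.928 and 0.970 in siNC, so VEGFA was lower even relative to VEGFB, with exact permutation p = 0.1 and 0.267 adjusted over the 8 pairs. Of 2 tested adrenomedullin partners, the receptor accessory protein RAMP1 rose (17.3 ± 0.617 FPKM in siFOXD3, 9.27 ± 2.36 FPKM in siNC) and ADM2, a related peptide, fell (1.79 ± 0.302 and 5.86 ± 0.268 FPKM).

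EGLN3 encodes the prolyl hydroxylase PHD3, which HIF induces and which acts back on the HIF alpha subunit. It was at 11.0, 10.1 and 9.81 FPKM in siFOXD3, against 13.0, 4.39 and 5.97 FPKM in siNC. The siFOXD3 libraries lay close together between siNC replicate 1 above and siNC replicates 2 and 3 below. Throughout, ± gives the SE for log2 fold changes and the SD for FPKM. The log2 fold change was 0.49 ± 0.36 (adjusted p = 0.287, limma). Without siNC replicate 1 it was 0.88 ± 0.11 (adjusted p = 7.94e-05, limma), and without siNC replicate 2 it was 0.20. Leaving out the highest siNC library was bound to raise the value, so the call without it supports nothing. The siNC libraries spanned 1.38 on the log2 scale, a span reached by 0.319% of the genes tested, and the siFOXD3 libraries spanned 0.15.

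The other hydroxylases that act on HIF did not show this spread. EGLN1, the main oxygen sensor of most cells, was at 11.0, 10.8 and 9.85 FPKM in siFOXD3 and at 9.95, 10.3 and 8.78 FPKM in siNC, and EGLN2 averaged 36.9 ± 2.67 and 34.9 ± 1.62 FPKM in siFOXD3 and siNC. Neither was called (adjusted p = 0.229 for EGLN1 and 0.319 for EGLN2, limma). EGLN3 made up 17.8%, 18.1% and 17.7% of the summed FPKM of the 3 EGLN genes in siFOXD3, and 21.8%, 9.12% and 12.1% in siNC. The most abundant of the 3 was EGLN2 in every library, at 61.5% to 70.2% of the sum.

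BNIP3 and BNIP3L are related proteins of the mitochondrial outer membrane that mark mitochondria for removal by autophagy. BNIP3 was at 29.6, 27.1 and 28.0 FPKM in siFOXD3, against 41.9, 32.2 and 39.4 FPKM in siNC. BNIP3L was at 18.1, 19.5 and 20.5 FPKM in siFOXD3, against 29.4, 29.5 and 29.6 FPKM in siNC. For both genes the groups did not overlap. The siNC values of BNIP3L lay so close together that 99.8% of the genes tested had a span at least as wide. BNIP3 fell by 0.40 ± 0.09 on the log2 scale (limma, Benjamini-Hochberg adjusted p = 0.00232) and BNIP3L fell by 0.58 ± 0.06 (adjusted p = 1.48e-05). Without siNC replicate 1, BNIP3 was at -0.33 (adjusted p = 0.00566) and BNIP3L at -0.59. The ratio of BNIP3 to BNIP3L FPKM was 1.64, 1.39 and 1.36 in siFOXD3 and 1.42, 1.09 and 1.33 in siNC, with overlap (exact permutation p = 0.4, 0.457 adjusted over the 8 pairs).

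Other genes of mitochondrial removal were lower as well. Of 12 tested mitophagy receptors and ATG8 family genes, 9 were called lower, 3 were not called, and the list's median was -0.55 on the log2 scale. That is 75.0% of the list called, all lower, beside 65.9% of all genes called and 38.7% called lower. OPTN, an autophagy receptor for damaged mitochondria, was at 5.68 ± 0.315 FPKM in siFOXD3 and 27.6 ± 1.17 FPKM in siNC, a log2 fold change of -2.10. The ATG8 proteins GABARAPL1 (39.2 ± 0.818 FPKM in siFOXD3, 93.2 ± 4.92 FPKM in siNC), GABARAP (200.4 ± 6.79 and 350.2 ± 14.6 FPKM) and MAP1LC3B (14.0 ± 1.11 and 25.1 ± 0.578 FPKM), which the BNIP3 proteins bind on the autophagosome, fell too. PINK1, the kinase of the pathway that works through Parkin, fell by 0.32 and was not called with median-of-ratios scaling (adjusted p = 0.0867, limma), under which 8 genes of the list were lower and 1 higher.

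PDK1 encodes a kinase that inhibits pyruvate dehydrogenase. It was at 8.15, 7.78 and 8.78 FPKM in siFOXD3, against 10.4, 7.49 and 8.10 FPKM in siNC. The siFOXD3 values lay within the siNC range, and siNC replicate 1 was the highest library. The log2 fold change was -0.05 ± 0.11 (adjusted p = 0.675, limma), with 0.07 (adjusted p = 0.459) when siNC replicate 1 was left out.

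Around PDK1, genes that control pyruvate dehydrogenase were called at a rate near the background, 72.7% of the list against 65.9% of all genes. Of 11 tested genes 6 fell and 2 rose, at a median of -0.20 on the log2 scale, and without siNC replicate 1 the falls were 5. The rises were 1 without siFOXD3 replicate 1 or without siFOXD3 replicate 3, and 4 with median-of-ratios scaling, where the median was -0.08. The phosphatase genes PDP1 (4.84 ± 0.285 FPKM in siFOXD3, 9.09 ± 0.690 FPKM in siNC) and PDP2 (3.11 ± 0.405 and 5.38 ± 0.321 FPKM) and the phosphatase regulator PDPR (log2 fold change -0.57) fell. The kinase PDK4 was at 0.251, 0.391 and 0.421 FPKM in siFOXD3, against 1.15, 1.18 and 1.48 FPKM in siNC. It is 1 of the 6, but it passed the filter through siNC only, the group where it was higher, so its call supports nothing. PDK1 made up 33.1%, 32.1% and 33.8% of the summed FPKM of the 4 PDK genes in siFOXD3, and 33.9%, 26.2% and 28.4% in siNC.

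CA9 encodes carbonic anhydrase IX, an enzyme of the cell surface that helps tumour cells handle acid and is widely used as a marker of hypoxia. It was low throughout, at 2.27, 2.36 and 2.31 FPKM in siFOXD3, against 2.86, 0.569 and 0.777 FPKM in siNC. The siFOXD3 libraries agreed closely, and siNC replicate 1 was 5.04 times siNC replicate 2. At the estimated depth these levels correspond to 27, 27 and 29 fragments in siFOXD3 and 32, 7 and 9 fragments in siNC. The log2 fold change was 0.58 ± 0.29 (adjusted p = 0.0995, limma), and 0.99 ± 0.12 without siNC replicate 1 (adjusted p = 5.3e-05). That second call supports nothing, because CA9 then reached 1 FPKM in siFOXD3 only. Without siNC replicate 2 the log2 fold change was 0.34 (adjusted p = 0.295), and without siNC replicate 3 it was 0.43 (adjusted p = 0.275). With quantile normalization of all 6 libraries CA9 was called, at 0.93 (adjusted p = 0.0341).

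Other genes of acid handling included a lactate exporter that rose. Of 7 tested carbonic anhydrase and acid export genes, 4 were called higher and 0 lower, around a median of 0.28 on the log2 scale. The share called was 57.1%, beside 65.9% of all genes. With no filter on low values 2 were called lower, CA13 (0.0606 ± 0.0692 FPKM in siFOXD3, 0.617 ± 0.217 FPKM in siNC) and CA14 (0.280 ± 0.115 and 0.907 ± 0.297 FPKM), both carbonic anhydrases. SLC16A3, the lactate exporter MCT4 and a known HIF target, was at 83.0, 87.6 and 88.8 FPKM in siFOXD3, against 51.4, 51.0 and 45.7 FPKM in siNC (log2 fold change 0.80). Its relative SLC16A1 rose by 0.32, their chaperone BSG by 0.28 and the bicarbonate transporter SLC4A7 by 0.29. CA12, another carbonic anhydrase found on tumour cells, was not called (1.42 ± 0.270 FPKM in siFOXD3, 1.17 ± 0.282 FPKM in siNC).

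P4HA1 encodes the catalytic subunit of collagen prolyl 4-hydroxylase, which stabilises the collagen triple helix. It was at 14.4, 13.1 and 12.6 FPKM in siFOXD3, against 13.3, 10.2 and 13.8 FPKM in siNC. The groups overlapped, and the log2 fold change was 0.11 ± 0.11 (adjusted p = 0.402, limma), with 0.16 (adjusted p = 0.249) when siNC replicate 1 was left out. Its alternative subunit P4HA2, also known as a HIF target, fell to 10.4 ± 0.671 FPKM in siFOXD3, against 16.9 ± 2.59 FPKM in siNC. P4HA1 therefore held 57.6%, 53.7% and 55.2% of the summed P4HA FPKM in siFOXD3 and 42.7%, 41.3% and 41.7% in siNC. The P4HA1 to P4HA2 ratio gave exact permutation p = 0.1, and 0.267 adjusted over the 8 pairs. Among 8 tested collagen hydroxylation genes there were 3 rises and 4 falls (87.5% called, beside 65.9% of all genes; median -0.15, or -0.04 with median-of-ratios scaling), and without siNC replicate 1 the falls were 3. P4HB, the shared beta subunit, rose (365 ± 3.96 FPKM in siFOXD3, 271 ± 8.56 FPKM in siNC), while CRTAP (22.8 ± 2.42 and 44.4 ± 2.37 FPKM) and LEPRE1 (3.29 ± 0.271 and 5.33 ± 0.187 FPKM), partners in collagen prolyl 3-hydroxylation, fell.

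NDRG1 is a cytoplasmic protein of stress and differentiation that is strongly induced by low oxygen. It was at 21.0, 20.6 and 21.3 FPKM in siFOXD3, against 54.4, 30.1 and 34.1 FPKM in siNC. All siFOXD3 values were below all siNC values, and siNC replicate 1 was 1.59 times the next siNC library. NDRG1 fell by 0.84 ± 0.20 on the log2 scale (limma, Benjamini-Hochberg adjusted p = 0.00847), and by 0.59 ± 0.06 without siNC replicate 1 (adjusted p = 2.85e-05). Of its 3 relatives NDRG2 (-0.67) and NDRG4 (-0.49) fell on the log2 scale and NDRG3 was not called (2 of 3 called, beside 65.9% of all genes). NDRG4 was not called under quantile normalization (-0.19, adjusted p = 0.226, limma).

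ANKRD37, an ankyrin repeat protein induced by HIF, was at 2.11, 1.28 and 1.598 FPKM in siFOXD3, against 3.09, 0.490 and 0.783 FPKM in siNC. As for CA9 and EGLN3, siNC replicate 1 was the highest library and siNC replicates 2 and 3 the lowest. The estimated fragments were 22, 13 and 18 in siFOXD3 and 31, 5 and 8 in siNC, so counting error is large here. The log2 fold change was 0.25 ± 0.35 (adjusted p = 0.55, limma), 0.70 ± 0.16 without siNC replicate 1 (adjusted p = 0.00336) and -0.03 without siNC replicate 2. The call without siNC replicate 1 supports nothing, for the reason given for CA9.

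**Figure D2:**
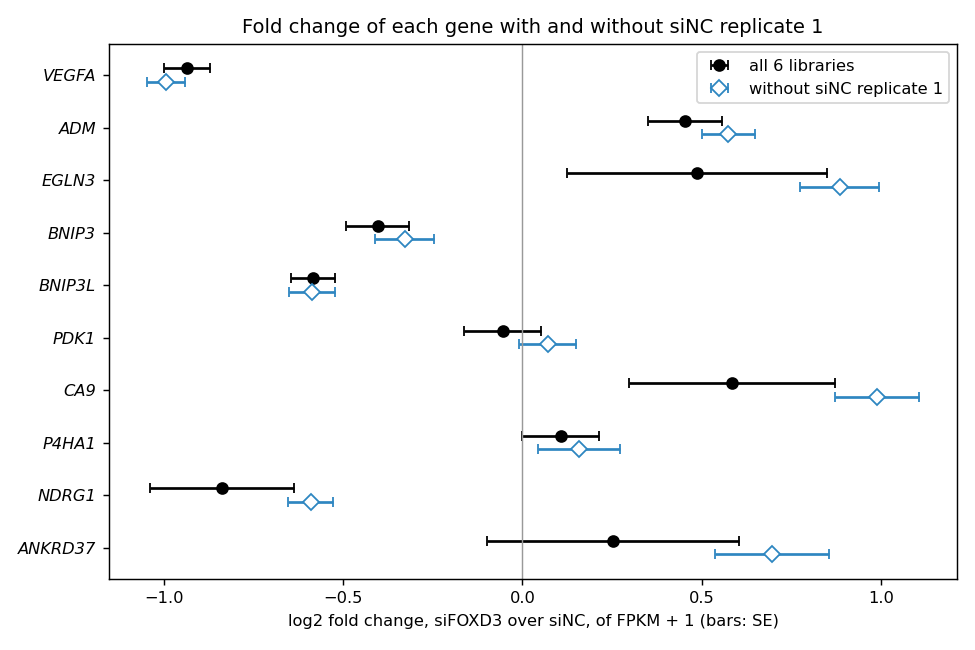
Log2 fold change of FPKM + 1, siFOXD3 over siNC (horizontal axis), for each target gene, with SE bars, from all 6 libraries (filled) and without siNC replicate 1 (open). EGLN3, CA9 and ANKRD37 move up by 0.40, 0.40 and 0.44 with much smaller SE when that library, their highest, is left out, as removing it was bound to do. VEGFA and BNIP3L move by -0.06 and -0.002.

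The spread within each group differed between the groups for these genes. The median span over 3 libraries was 0.15 in siFOXD3 and 0.42 in siNC on the log2 scale for the 10 genes, compared with 0.14 and 0.19 for all genes tested. The span was wider in siNC than in siFOXD3 for 9 of the 10 genes, the exception being BNIP3L, and for 63.9% of all genes tested. siNC replicate 1 was the highest siNC library for 7 of the 10 genes, compared with 34.7% of all genes, and was the lowest for VEGFA and BNIP3L. Removing it moved NDRG1 and BNIP3 toward 0 and VEGFA, ADM, EGLN3, CA9, ANKRD37 and P4HA1 away from it. BNIP3L moved by -0.002, and PDK1 changed sign, from -0.055 to 0.07.

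By level, the siFOXD3 order was BNIP3 (28.2 FPKM), NDRG1 (21.0), BNIP3L (19.4), VEGFA (19.1), ADM (17.7), P4HA1 (13.4), EGLN3 (10.3), PDK1 (8.24), CA9 (2.31) and ANKRD37 (1.66). Of these neighbours only BNIP3L and VEGFA overlapped. In siNC the order was NDRG1 (39.5), BNIP3 (37.9), VEGFA (37.4), BNIP3L (29.5), ADM (12.8), P4HA1 (12.4), PDK1 (8.66), EGLN3 (7.78), ANKRD37 (1.46) and CA9 (1.40). There the first 3 overlapped each other in sequence, as did ADM through EGLN3 and the pair at the bottom. VEGFA thus lay within the spread of the most abundant of the 10 in siNC and below BNIP3 and NDRG1 in siFOXD3.

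Genes of the HIF machinery itself were called at the background rate, 66.7% against 65.9% of all genes. Among 15 tested core genes there were 6 rises and 4 falls, and the median was 0.12 on the log2 scale. Median-of-ratios scaling gave 9 rises and 3 falls, and a median of 0.22. HIF1A, the alpha subunit found in most cells, is regulated mainly as a protein, and its messenger was at 74.3, 74.0 and 75.0 FPKM in siFOXD3, against 54.5, 62.5 and 64.1 FPKM in siNC. It rose by 0.30 ± 0.06 on the log2 scale (limma, Benjamini-Hochberg adjusted p = 0.00169), and siNC replicate 1 was the lowest library. EPAS1, which encodes HIF-2 alpha, averaged 37.4 ± 0.417 FPKM in siFOXD3 and 37.7 ± 1.14 FPKM in siNC, a log2 fold change of -0.01 (adjusted p = 0.881). HIF1A and EPAS1 protein was not measured. The partner ARNT fell to 10.1 ± 0.708 FPKM in siFOXD3, against 12.7 ± 0.849 FPKM in siNC, whereas ARNT2, its relative known from the nervous system, rose (4.20 ± 0.419 and 1.27 ± 0.336 FPKM).

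The degradation arm was mixed. VHL, the substrate receptor that recognises hydroxylated HIF alpha, fell to 10.3 ± 0.605 FPKM in siFOXD3, against 16.4 ± 0.671 FPKM in siNC (log2 fold change -0.63, adjusted p = 2.16e-05, limma). Its ligase partners RBX1 (85.5 ± 5.08 FPKM in siFOXD3, 56.8 ± 5.58 FPKM in siNC) and TCEB1 (log2 fold change 0.44) rose, and TCEB2 (-0.24) fell, the last not called with median-of-ratios scaling (adjusted p = 0.0673, limma). The coactivators EP300 (17.5 ± 0.313 and 12.2 ± 0.762 FPKM in siFOXD3 and siNC) and CREBBP (log2 fold change 0.39) rose. CITED2, a HIF target that competes with HIF for those coactivators, fell to 41.7 ± 1.69 FPKM in siFOXD3, against 67.6 ± 9.49 FPKM in siNC.

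Glycolytic enzyme genes known as HIF targets were mostly higher, and the glucose transporters in the same list were not. Of 17 tested, 11 were called higher and 4 lower, around a median of 0.26 against -0.08 over all genes on the log2 scale. Over all genes 27.2% were called higher and 38.7% lower. Quantile normalization gave 9 higher and 5 lower, and ALDOA and HK1, a glycolytic aldolase and a hexokinase, were then not called. LDHA, which turns pyruvate into lactate, was at 1661, 1679 and 1671 FPKM in siFOXD3, against 1040, 732 and 749 FPKM in siNC, and ENO1, an enolase, at 1968, 1972 and 1958 FPKM against 1136, 899 and 908 FPKM. Both rose, with log2 fold changes of 1.01 each. siNC replicate 1 was the highest siNC library for 15 of the 17 genes, compared with 34.7% of all genes. The same count was 15 of 30 for the other HIF targets, 6 of 15 for the core genes and 3 of 12 for the mitophagy genes. It was 3 of 3 for the NDRG relatives, 5 of 8 for the collagen list and 4 of 7 for the acid export list. For the pyruvate dehydrogenase list it was 3 of 11, for the VEGF list 1 of 5 and for the adrenomedullin partners 0 of 2. For the lung epithelial markers it was 5 of 8. LDHA and ENO1 were among the 15 glycolysis genes, and in both siNC replicate 1 stayed below the siFOXD3 libraries. The isozymes ALDOC and ENO2 fell: ALDOC to 5.80 ± 0.303 FPKM in siFOXD3, against 28.9 ± 2.07 FPKM in siNC, and ENO2 to 19.2 ± 1.66 FPKM, against 41.1 ± 2.03 FPKM. SLC2A1, the glucose transporter GLUT1, was not called (58.0 ± 1.26 FPKM in siFOXD3, 59.4 ± 0.675 FPKM in siNC). SLC2A3, the transporter GLUT3, was too low to be tested, at 0.0797, 0.0845 and 0.277 FPKM in siFOXD3, against 1.80, 0.564 and 1.09 FPKM in siNC, and was the gene of the list called lower in addition when no filter was used. Several glycolysis genes have near-identical processed pseudogenes, and how reads were shared with these is not given in the labels.

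**Figure D3:**
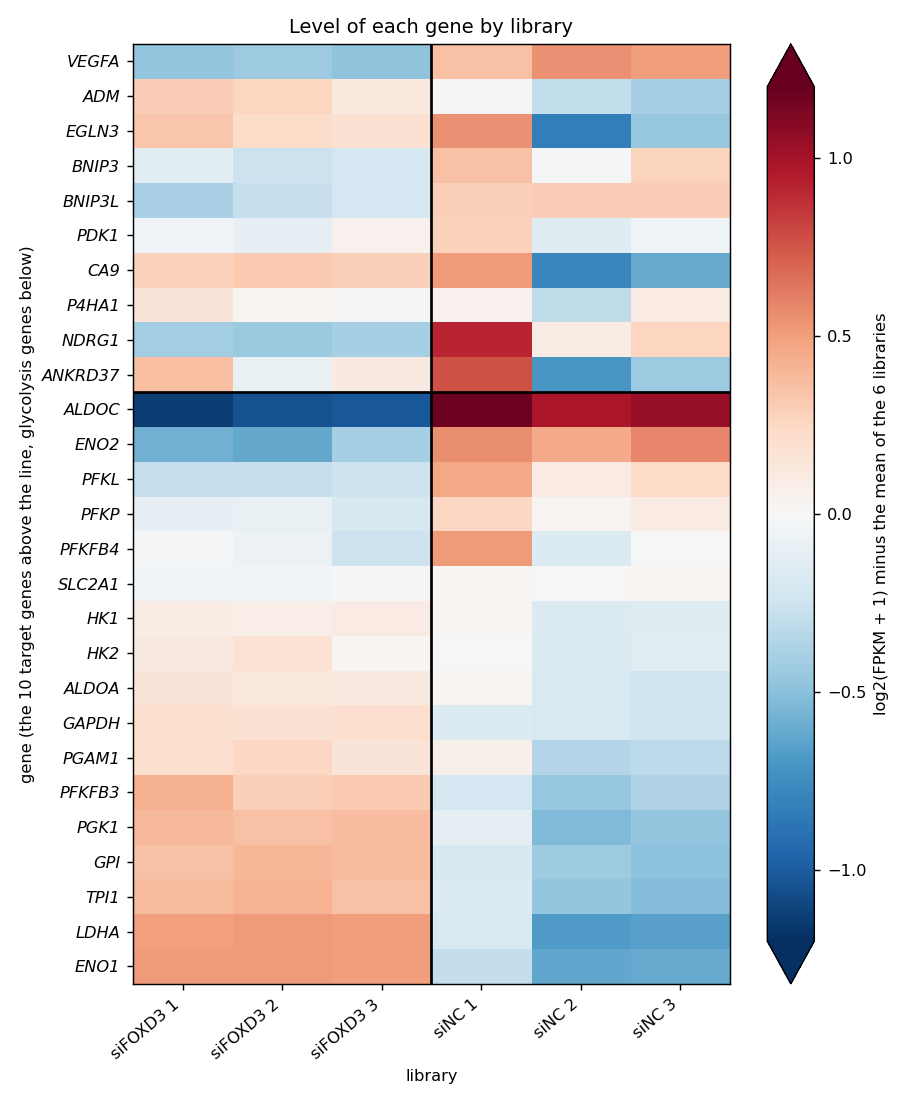
Level of each gene in each library as log2(FPKM + 1) minus its mean over the 6 libraries (colour, capped at both ends), for the 10 target genes (above the line) and the 17 tested glycolysis genes (below), siFOXD3 left and siNC right. siNC replicate 1 is redder than siNC replicates 2 and 3 for EGLN3, CA9, NDRG1, ANKRD37 and most glycolysis genes.

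Among 30 tested other HIF targets there were 16 falls and 5 rises, around a median of -0.40 on the log2 scale, or -0.21 under quantile normalization. The share called was 70.0%, beside 65.9% of all genes, of which 38.7% were called lower and 27.2% higher. DDIT4, a stress-induced inhibitor of mTORC1, was at 53.6, 49.8 and 59.3 FPKM in siFOXD3, against 191, 162 and 166 FPKM in siNC, a log2 fold change of -1.66 (limma, adjusted p = 8.15e-08). KLHL24, a kelch family protein, fell to 2.47 ± 0.165 FPKM in siFOXD3, against 8.90 ± 1.46 FPKM in siNC. TFRC, the transferrin receptor, rose to 135 ± 4.79 FPKM in siFOXD3, against 58.7 ± 4.95 FPKM in siNC. Without siNC replicate 1 the counts of rises and falls were the same in each of the lists of relatives, pathway genes and targets except the pyruvate dehydrogenase and collagen lists, whose counts are given above.

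**Figure D4:**
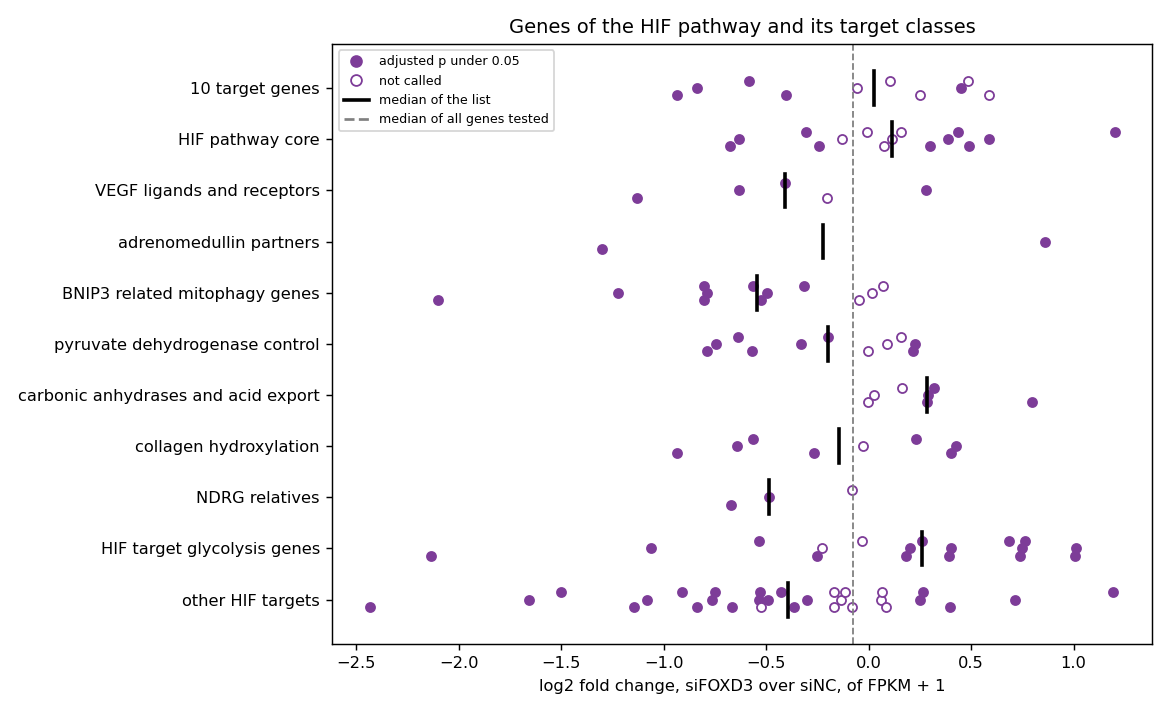
Log2 fold change of FPKM + 1, siFOXD3 over siNC (horizontal axis), of each tested gene of the 10 target genes and of the lists of relatives and other HIF targets (rows), filled where the adjusted p was under 0.05, with the median of each list (bar) and of all genes (dashed line, -0.08). The glycolysis list has its median at 0.26 and the other HIF targets at -0.40, and the 10 target genes spread to both sides.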

How the data were processed

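Per the file headers, the authors deposited FPKM per gene symbol, 1 table for each of 6 libraries (3 siFOXD3, 3 siNC), and groups were taken from the sample titles. TopHat, Cufflinks and the build hg19 are named per the submitters' processing notes, and the sources used here give no versions, annotation or strand handling. Rows of 1 symbol were summed and an absent symbol was set to 0. On the log2(FPKM + 1) scale, groups were compared in R 4.3.3 by limma 3.58.1 (eBayes with trend and robust, group as the only term), over the 12555 genes with at least 1 FPKM in at least 3 libraries. On this scale the fold of a low gene is understated. Other steps ran in Python 3.11.15 (scipy 1.17.1). On simulated libraries of the same 12555 genes the fit recovered 12% of genes changed by 0.25, 66% of those changed by 0.5 and 96% to 100% of those changed by 1 or 2. Far fewer genes were changed there than were called in the data, so the adjusted threshold was stricter. These shares therefore do not give the recovery in the data.

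The files hold no read counts. Depth was estimated from the lowest step of values of genes with 1 annotated transcript of 700 to 4000 bases in GENCODE 29, with an assumed fragment length of 150 bases, and recovered within 2.8% on 6 simulated libraries. The simulated libraries shared the assumed length and the steps of 1 fragment, so they tested neither assumption. Fragment numbers use the longest annotated transcript and are approximate, and they cover counting error only, since reads are not independent molecules. The 10 genes and the lists were chosen with earlier results of these data known, and so the lists are described by counts and medians. The gene pairs whose ratios are given, the distance of 0.5 used for siNC replicate 1, the EGLN, PDK and P4HA shares and SFTPB, SFTPC, CDH5, COL1A1, CD68, LAPTM5, CD14, PTPRC, KDR, FLT1, CALCRL, CA12, EGLN1, EGLN2, HIF1A, EPAS1, ARNT, EP300, CREBBP, TCEB1, TCEB2, PINK1, SLC2A1, SLC2A3, ALDOA, HK1, CA13, CA14 and NDRG3 were added after values were seen. Otherwise the genes named from a list were its called genes of greatest absolute fold change, 4 at most (if under 2 were called, the 2 of highest level). The result of 1 gene chosen by this rule is not reported here.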

Additional observations from a re-analysis of the deposited data

How the results depend on the processing

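Alternatives were pseudocounts of 0.1 and 5, no filter on low values or 5 FPKM in 3 libraries, quantile normalization, median-of-ratios scaling, limma without trend and robust, a replicate block, and leaving out each library in turn. Of the 10 genes 4 were called lower under each of these, and 1 was called higher except with quantile normalization (2, with CA9 added) and without siNC replicate 1 (4), so leaving out 1 library gave 1 to 4. The cause was not tested. All genes called numbered 8278, and 6553 to 8908 under the alternatives, with 7461 to 8394 when 1 library was left out. Of the log2 fold changes of single genes under the alternatives, 129 kept their direction and side of the threshold, 4 newly passed it and 5 changed sign, each of these for a gene not called. The sign changes were PDK1 (0.06 with quantile normalization, 0.05 with median-of-ratios scaling, 0.07 without siNC replicate 1), ANKRD37 (-0.034) and P4HA1 (-0.022), both of these without siNC replicate 2. With 1 library left out PDK1 ranged from -0.14 to 0.07, ANKRD37 from -0.03 to 0.70 and P4HA1 from -0.02 to 0.18. Quantile normalization and median-of-ratios scaling moved the median of all genes by 0.10 each, from -0.08, and the share of calls that were lower was 58.7% as deposited (3415 higher, 4863 lower), 47.4% with quantile normalization (4255 and 3835) and 47.1% with median-of-ratios scaling (4416 and 3934). CA9 and ANKRD37 were not tested with a filter of 5 FPKM.

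The labels do not say that replicate numbers pair the samples. Deviations of same-numbered libraries from their group means correlated across genes at 0.061, 0.163 and 0.115, each the highest for its library. That is a hint of pairing from the data, not from the design, and the main fit assumed no pairing. With the replicate block 4 of the 10 genes were called lower, 1 higher and 8172 genes in all. With 3 libraries a group, a p-value here rests on few degrees of freedom, and low genes such as CA9 and ANKRD37 also on few fragments.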

Other observations

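STC1, which encodes stanniocalcin 1, a secreted glycoprotein also known as hypoxia-inducible, was in none of the lists and was picked out after its values were seen, among the 30 genes that were higher in siNC replicate 1 than in the other siNC libraries. It was at 3.77, 2.33 and 2.98 FPKM in siFOXD3, against 3.01, 0.998 and 1.75 FPKM in siNC. Its log2 fold change was 0.51 (limma, Benjamini-Hochberg adjusted p = 0.0703), and 0.76 without siNC replicate 1 (adjusted p = 0.00425). STC1 was picked for being high in that library, so leaving the library out was bound to raise the value. The call without it supports nothing. TMEM45A, a transmembrane protein, was at 18.0, 20.5 and 20.01 FPKM in siFOXD3, against 41.9, 20.4 and 26.9 FPKM in siNC, and PFKFB4, which tunes glycolytic flux, at 3.95, 3.79 and 3.23 FPKM, against 6.15, 3.49 and 3.996 FPKM in siNC. Neither of the last named passed the test.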
